A study of Mus musculus with 9 samples.

Results

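The Ly6 surface antigens described here are 6 mouse genes, Ly6a, Ly6c1, Ly6c2, Ly6d, Ly6e and Ly6g6c, picked by symbol from the 57180 genes of the count table. Their Ensembl identifiers in the table are ENSMUSG00000075602, ENSMUSG00000079018, ENSMUSG00000022584, ENSMUSG00000034634, ENSMUSG00000022587 and ENSMUSG00000092586, in the same order. All 6 were found, each in 1 row, and all 6 passed the filter on low counts that left 17168 genes for testing. They were listed with earlier results of these data known, and the values behind the choice are not recorded. Their differences between groups are therefore a description, and the adjusted p values beside them show where each gene stood in the fit over all genes tested.

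Ly6 proteins are small, disulfide-rich proteins of the Ly6/uPAR family, most of them held to the outer face of the cell membrane by a glycosylphosphatidylinositol (GPI) anchor. Ly6a encodes Sca-1, a marker of progenitor cells that is also found on endothelium and some fibroblasts. Ly6c1 and Ly6c2 encode the Ly6C antigen, which marks inflammatory monocytes as well as endothelium and some lymphocytes. Ly6e is broadly expressed and, like Ly6a, is known to be induced by interferon in mouse cells. Ly6d is found in keratinocytes and in early B lineage cells, and Ly6g6c belongs to a group of family genes inside the major histocompatibility complex.

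RNA was sequenced from back skin in 3 groups of 3 libraries, all from BALB/c nude mice, which lack a thymus and most of their T cells. UVB-hCOL3A1 skin received ultraviolet B and hCOL3A1, an agent that the series title describes as an mRNA for type III collagen. UVB-Saline skin received ultraviolet B and saline. NoUVB skin was not irradiated, and its labels name no saline. Irradiation was given on alternate days over 8 weeks, from 60 mJ/cm² (1 minimal erythemal dose) up to 240 mJ/cm² (4 minimal erythemal doses). Skin was collected on day 28, and the labels do not state the day from which this was counted. The sources used here give neither the age of the mice nor the dose, carrier or route of hCOL3A1, and no group analysed here is labelled as given a carrier or another RNA alone. The 9 libraries carry 1 batch label, and no label ties a library to its own animal, so the spread between libraries may be partly technical.

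Total estimated counts ranged from 7640172 to 12927411 per library, of which the ribosomal RNA gene Rn18s-rs5 took 34.3% to 55.3% in 8 libraries and 7.71% in NoUVB 2. UVB-Saline 3 stood apart: in CPM, that is counts scaled to a common library size, its score on principal component 1 of the log2 values was 55.0, UVB-hCOL3A1 3 had 39.8 and the other 7 libraries had -33.5 to 10.05. UVB-Saline 3 also held the highest summed level of stress keratin and alarmin genes, 3791 CPM, against 498 to 993 CPM in the other 8. The main edgeR results that rest on it are given below with and without it. Markers of epidermis were abundant in every library, with 3073 to 5342 CPM summed over 8 basal keratinocyte genes. In whole skin, more cells of a type and more RNA per cell cannot be told apart.

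Of the 6 genes, 5 lie on chromosome 15 and Ly6g6c lies on chromosome 17 in the GRCm38 annotation. Ly6e, Ly6i, Ly6a, Ly6c1 and Ly6c2 follow each other there in that order as the only protein-coding genes of their stretch, with Ly6d farther off on the side of Ly6e. Ly6c1 and Ly6c2 are near copies, so the stretches of their coding sequences that hold every difference are shown, to make plain how few bases separate reads of one from reads of the other. The sequences are from GENCODE M21 transcripts Ly6c1-201 (coding span chr15:75045405-75048511, minus strand, GRCm38, introns removed) and Ly6c2-201 (chr15:75108546-75111667, minus strand). Positions count from 1 at the start codon, each coding sequence has 393 bases without the stop codon, and capitals mark the bases at which the genes differ. Positions 1 to 90 hold 6 differences and positions 244 to 393 hold 3.
Ly6c1, positions 1 to 90: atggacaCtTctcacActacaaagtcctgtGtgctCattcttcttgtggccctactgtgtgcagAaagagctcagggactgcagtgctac
Ly6c2, positions 1 to 90: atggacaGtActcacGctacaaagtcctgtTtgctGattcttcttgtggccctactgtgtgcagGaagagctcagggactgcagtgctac
Ly6c1, positions 244 to 393: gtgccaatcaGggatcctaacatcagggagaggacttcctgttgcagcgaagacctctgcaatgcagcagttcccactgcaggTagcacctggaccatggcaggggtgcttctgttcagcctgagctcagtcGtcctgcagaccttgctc
Ly6c2, positions 244 to 393: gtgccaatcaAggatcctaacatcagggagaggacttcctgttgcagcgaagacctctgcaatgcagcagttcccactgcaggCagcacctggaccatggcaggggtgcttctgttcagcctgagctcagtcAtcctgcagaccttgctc
They differed at 9 of 393 aligned positions, an identity of 97.7%, and the longest identical run was 188 bases, which is longer than the 150 bp reads. Of all 150-base windows in the protein-coding transcripts of Ly6c2, 5.44% also occurred in Ly6c1, and of those of Ly6c1, 2.29% occurred in Ly6c2. Ly6a, Ly6d, Ly6e and Ly6g6c shared 0 such windows with another gene. At 75 bases the shared portion was 20.7% for Ly6c2, 19.0% for Ly6c1 and 6.33% for Ly6a, and 0% for Ly6d, Ly6e and Ly6g6c. The reference is of C57BL/6J, another strain than the mice, and the effect of strain differences on the split of reads was not tested.

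Ly6c2 was the member with the widest separation between groups. Its level was 9.15, 9.502 and 8.31 CPM in UVB-hCOL3A1 1, 2 and 3, then 1.23, 4.36 and 5.53 CPM in UVB-Saline 1, 2 and 3, and 0.426, 0.804 and 0.769 CPM in NoUVB 1, 2 and 3. The 3 groups did not overlap, and each UVB-hCOL3A1 library lay above each UVB-Saline library, which in turn lay above each NoUVB library. The NoUVB levels rest on few reads, 3.28 to 9.21 estimated counts per library, against 77.31 to 119.6 in UVB-hCOL3A1 and 12.31 to 52.71 in UVB-Saline.

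Ly6c2 averaged 8.99 ± 0.612 CPM in UVB-hCOL3A1 and 0.666 ± 0.209 CPM in NoUVB (SD, n = 3 each), and the log2 difference was 3.68 ± 0.49 (SE; 12.8-fold, edgeR adjusted p = 0.0492). It was the only member called in this comparison, 1 of 6 at an adjusted p of 0.05, where 0.0408% of all genes tested were called, all of them higher. The call did not hold up under every setting. With limma voom the adjusted p was 0.111 and with non-robust dispersion 0.0567. Over all other scalings, filters, tools and fits run in edgeR, DESeq2 or limma voom, it ran from 2.2e-10 to 0.111. With 1 library left out, the lowest edgeR adjusted p was 0.00029. When single libraries were left out the log2 difference stayed between 3.51 and 3.83, but the call ended without each of the 3 NoUVB libraries, each of the 3 UVB-hCOL3A1 libraries or UVB-Saline 2 (adjusted p = 0.0868 to 0.252).

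The steps in between were smaller for Ly6c2. Between UVB-Saline (3.71 ± 2.22 CPM, SD, n = 3) and NoUVB (0.666 ± 0.209 CPM) the log2 difference was 2.40 ± 0.51 (adjusted p = 0.266). It was 2.02 without UVB-Saline 3 and 2.81 without UVB-Saline 1, where the adjusted p was 0.0216 and 0.0681% of all genes were called. DESeq2 gave an adjusted p = 0.00356, with 0.646% of all genes called. Between UVB-hCOL3A1 and UVB-Saline the log2 difference was 1.27 ± 0.39 (adjusted p = 0.302), or 1.67 without UVB-Saline 3 and 0.87 without UVB-Saline 1. These comparisons share groups with each other, so their values are not independent.

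**Figure D1:**
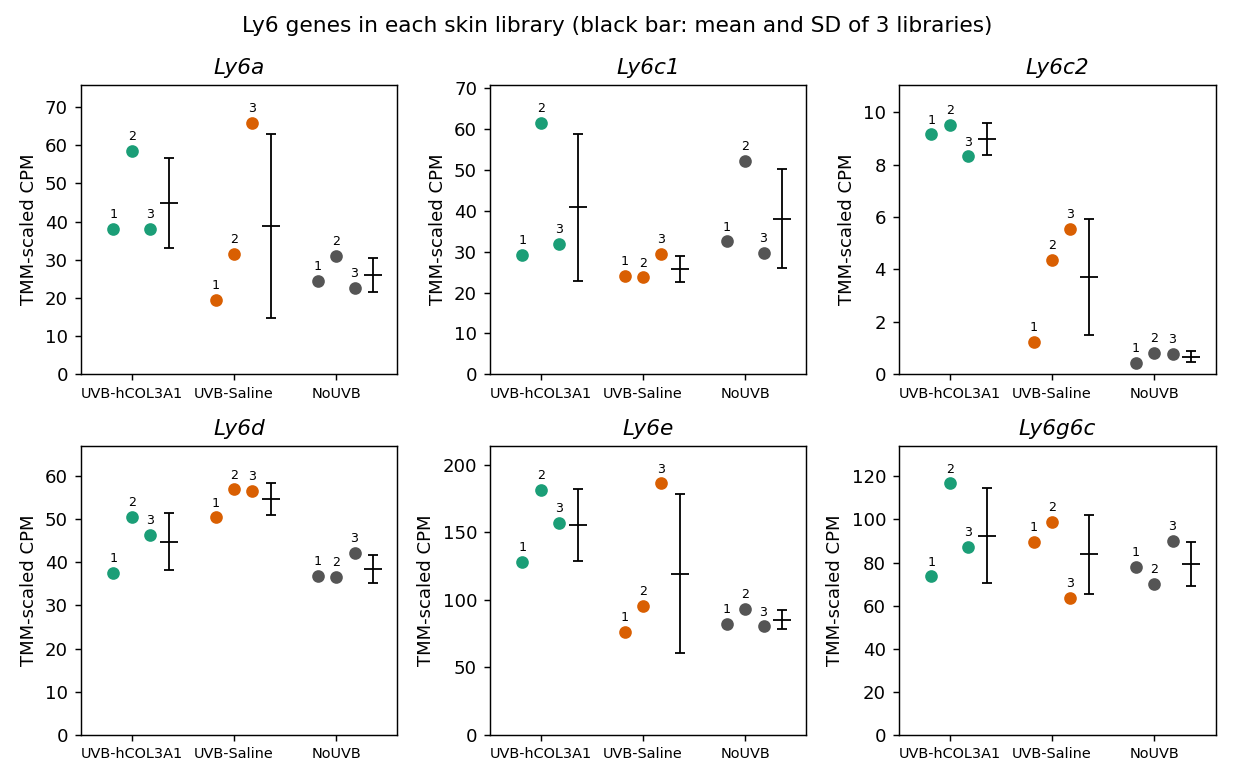
TMM-scaled CPM (vertical axes, each from 0) of the 6 Ly6 genes, with 1 point per library labelled by its number and the mean and SD of each group of 3 as a black bar. Ly6c2 lies at 8.31 to 9.502 CPM in UVB-hCOL3A1, 1.23 to 5.53 in UVB-Saline and 0.426 to 0.804 in NoUVB with no overlap, while the groups overlap in part for the other genes.

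Its near copy Ly6c1 did not share this pattern. Ly6c1 stood at 29.1, 61.6 and 31.95 CPM in UVB-hCOL3A1 1, 2 and 3, at 24.0, 23.7 and 29.4 CPM in UVB-Saline 1, 2 and 3, and at 32.5, 52.2 and 29.7 CPM in NoUVB 1, 2 and 3. Each UVB-Saline library lay below each NoUVB library, and UVB-hCOL3A1 overlapped both other groups. UVB-Saline averaged 25.7 ± 3.20 CPM and NoUVB 38.1 ± 12.2 CPM (SD, n = 3 each), a log2 difference of -0.575 ± 0.32 (adjusted p = 0.619), or -0.28 without NoUVB 2. Between UVB-hCOL3A1 (40.9 ± 18.003 CPM) and UVB-Saline the log2 difference was 0.67 ± 0.31 (adjusted p = 0.465), and without UVB-hCOL3A1 2 it was 0.25. Against NoUVB, UVB-hCOL3A1 differed by 0.10 ± 0.31 (adjusted p = 0.936).

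The highest Ly6c1 levels were those of UVB-hCOL3A1 2 and NoUVB 2. Summed over 10 adipocyte markers, these libraries held 1443 and 1517 CPM, against 467 to 924 CPM in the other 7. Over 14 blood endothelium markers they held 455 and 538 CPM, against 320 to 449 CPM in the other 7. For 12 fibroblast markers the match depended on the measure. Their mean log2 level, relative to the NoUVB mean, was highest in these libraries, at 0.50 and 0.23, against -0.44 to 0.19 in the other 7. Their summed level was highest in UVB-hCOL3A1 2, at 6853 CPM, but in NoUVB 2 it was 4920 CPM, below NoUVB 1 (5021 CPM) and NoUVB 3 (5764 CPM). Of the 12 fibroblast markers, all were positive for UVB-hCOL3A1 against UVB-Saline (median 0.53), and 8 lay wholly higher, where 8.95% of all genes did so. For UVB-Saline against NoUVB 1 was positive (median -0.30). edgeR called 0 in both comparisons. At an unadjusted p of 0.05, 8 were higher in the first, where 5.97% of all genes were. In the second, 1 was higher and 4 were lower, where 4.93% and 4.6% of all genes were. For UVB-hCOL3A1 against UVB-Saline, 10 of 10 adipocyte markers were positive (median 0.99, 7 wholly higher). So were 8 of 14 blood endothelium markers (median 0.07, 4 wholly higher). For UVB-Saline against NoUVB, 0 and 6 were positive (medians -1.03 and -0.22), with 2 of each list wholly lower. Of all genes, 46.1% and 51.8% were positive, 8.95% wholly higher in the first and 6.61% wholly lower in the second. edgeR called 0 of both lists. The part of fat, vessels and fibroblasts in the Ly6c1 level was not tested.

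Summed, Ly6c1 and Ly6c2 held 38.3, 71.1 and 40.3 CPM in UVB-hCOL3A1, 25.3, 28.0 and 34.9 CPM in UVB-Saline, and 33.0, 53.0 and 30.5 CPM in NoUVB. The summed level thus overlapped between UVB-Saline and NoUVB, while every UVB-hCOL3A1 library lay above every UVB-Saline library. The log2 difference of the sum was 0.76 ± 0.29 between UVB-hCOL3A1 and UVB-Saline (adjusted p = 0.390), -0.40 ± 0.29 between UVB-Saline and NoUVB (0.714) and 0.36 ± 0.29 between UVB-hCOL3A1 and NoUVB (0.679). Within the pair, Ly6c2 held 23.9%, 13.4% and 20.6% of the counts in UVB-hCOL3A1 1, 2 and 3, then 4.88%, 15.5% and 15.8% in UVB-Saline, and 1.29%, 1.52% and 2.52% in NoUVB. The share was thus above that of each NoUVB library in all 6 irradiated libraries, with UVB-Saline 1 lowest among these. The 95% Wilson interval of UVB-Saline 1 (2.81% to 8.33%) overlapped that of NoUVB 3 (1.28% to 4.90%), and such intervals cover counting error only.

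**Figure D2:**
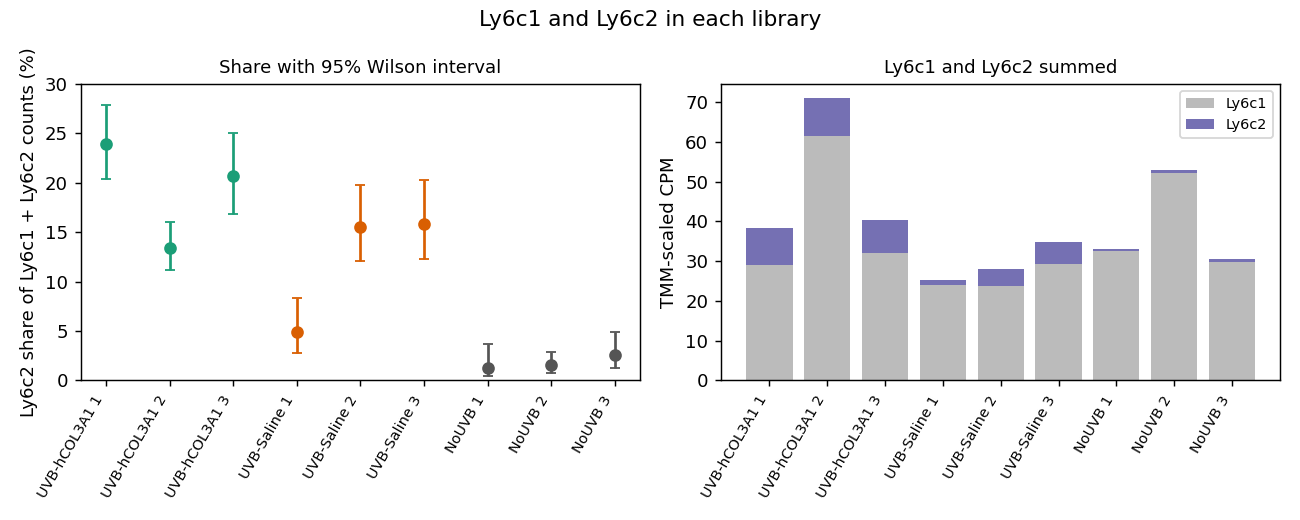
Left, the share of Ly6c2 in the counts of Ly6c1 and Ly6c2 together, in percent with 95% Wilson intervals, by library; right, TMM-scaled CPM of both genes stacked. The share is 13.4% to 23.9% in UVB-hCOL3A1, 4.88% to 15.8% in UVB-Saline and 1.29% to 2.52% in NoUVB, while the stacked level is highest in UVB-hCOL3A1 2 at 71.1 CPM.

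Ly6e and Ly6a, both known to be induced by interferon, varied together and were each highest in UVB-Saline 3. Ly6e stood at 128, 181 and 157 CPM in UVB-hCOL3A1 1, 2 and 3, at 76.0, 95.4 and 186 CPM in UVB-Saline 1, 2 and 3, and at 82.0, 93.2 and 80.3 CPM in NoUVB 1, 2 and 3. Every UVB-hCOL3A1 library lay above every NoUVB library, whereas UVB-Saline spanned from below the lowest NoUVB library to above every other library. Between UVB-hCOL3A1 (155 ± 26.6 CPM, SD, n = 3) and NoUVB (85.2 ± 7.03 CPM) the log2 difference was 0.87 ± 0.30 (adjusted p = 0.325). In a fit of these 2 groups alone the adjusted p was 0.00642, and in the 3-group fit without UVB-Saline 3 it was 0.0148, where 2.47% and 1.37% of all genes were called. Neither changed the size, 0.86 and 0.88.

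For UVB-Saline the Ly6e result turned on 1 library. The mean was 119 ± 58.9 CPM (SD, n = 3), the log2 difference from NoUVB was 0.48 ± 0.30 (adjusted p = 0.669), and without UVB-Saline 3 it was -0.0022. Between UVB-hCOL3A1 and UVB-Saline the log2 difference was 0.38 ± 0.30 (adjusted p = 0.675). Without UVB-Saline 3 it was 0.88 with an adjusted p = 0.0379, where 0.442% of all genes were called, and without UVB-Saline 1 it was 0.14.

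Ly6a followed the same order of libraries in most respects. Its level was 38.0, 58.5 and 38.0 CPM in UVB-hCOL3A1 1, 2 and 3, then 19.4, 31.5 and 65.9 CPM in UVB-Saline 1, 2 and 3, and 24.4, 31.1 and 22.5 CPM in NoUVB 1, 2 and 3. Again UVB-hCOL3A1 lay wholly above NoUVB, and UVB-Saline held both the lowest and the highest of the 9 values. UVB-hCOL3A1 averaged 44.9 ± 11.8 CPM and NoUVB 26.0 ± 4.50 CPM (SD, n = 3 each), a log2 difference of 0.78 ± 0.42 (adjusted p = 0.516).

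Ly6a in UVB-Saline averaged 38.9 ± 24.1 CPM (SD, n = 3), and its log2 difference from NoUVB was 0.58 ± 0.42 (adjusted p = 0.715), or -0.04 without UVB-Saline 3. Between UVB-hCOL3A1 and UVB-Saline the log2 difference was 0.21 ± 0.41 (adjusted p = 0.896). That value was 0.84 without UVB-Saline 3, -0.11 without UVB-Saline 1 and -0.03 without UVB-hCOL3A1 2. Over the 9 libraries the log2 CPM of Ly6a and Ly6e had a Pearson r of 0.95 and a Spearman rho of 0.98, given as a description of libraries that share depth, scaling and tissue makeup.

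**Figure D3:**
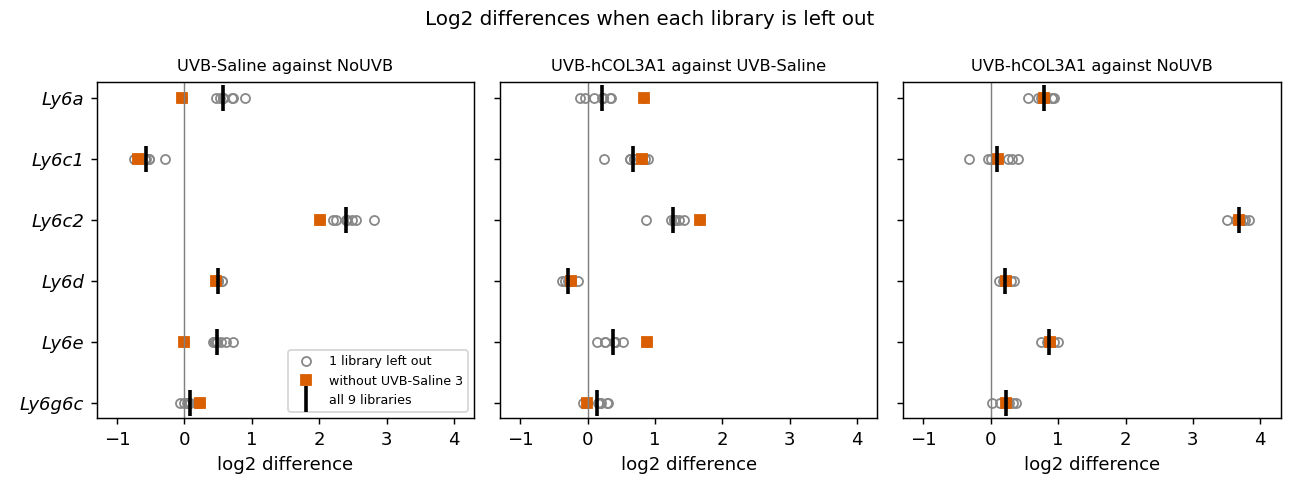
Fitted log2 differences (horizontal axis) of the 6 Ly6 genes in the 3 comparisons, with all 9 libraries (black bar), with each library left out in turn (open circles) and without UVB-Saline 3 (orange square). For UVB-Saline against NoUVB, without that library Ly6a is at -0.04 (0.58 with all 9) and Ly6e at -0.0022 (0.48 with all 9), while Ly6c2 stays between 2.02 and 2.81.

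Ly6d, the keratinocyte member, was at its highest levels in UVB-Saline, and no difference passed. Ly6d stood at 37.6, 50.5 and 46.3 CPM in UVB-hCOL3A1 1, 2 and 3, at 50.4, 56.9 and 56.6 CPM in UVB-Saline 1, 2 and 3, and at 36.8, 36.5 and 42.2 CPM in NoUVB 1, 2 and 3. Every UVB-Saline library lay above every NoUVB library, and UVB-hCOL3A1 overlapped both. UVB-Saline averaged 54.6 ± 3.66 CPM and NoUVB 38.5 ± 3.22 CPM (SD, n = 3 each), a log2 difference of 0.50 ± 0.12 (edgeR unadjusted p = 0.00192, adjusted p = 0.302) that ranged from 0.46 to 0.56 when single libraries were left out.

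UVB-hCOL3A1 averaged 44.8 ± 6.60 CPM of Ly6d (SD, n = 3) and differed from UVB-Saline by -0.29 ± 0.12 (adjusted p = 0.422) and from NoUVB by 0.22 ± 0.12 (adjusted p = 0.528). The summed level of 16 upper epidermis markers was 4263, 4808 and 6009 CPM in UVB-hCOL3A1, 5571, 7400 and 6349 CPM in UVB-Saline, and 3444, 4262 and 6167 CPM in NoUVB. UVB-Saline 2 was highest in this sum and in Ly6d. By the mean log2 level of the 15 markers tested, relative to the NoUVB mean, NoUVB 3 was highest at 0.33, against 0.20 in UVB-Saline 2 and -0.02 in UVB-Saline 3. Of these 15, 0 were positive for UVB-hCOL3A1 against UVB-Saline (median -0.24) and 4 lay wholly lower, where 8.33% of all genes did so. Against NoUVB, 3 were positive for UVB-hCOL3A1 (median -0.32) and 10 for UVB-Saline (median 0.13), while Ly6d was positive in both. Of all genes, 46.1%, 49.2% and 51.8% were positive in the same order. edgeR called 0 of the 15 in each comparison. The part of epidermal content in Ly6d was not tested.

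Ly6g6c, the member outside the chromosome 15 cluster, showed no separation of groups. Its level was 73.6, 117 and 87.2 CPM in UVB-hCOL3A1, 89.6, 98.7 and 63.4 CPM in UVB-Saline, and 78.1, 69.9 and 90.1 CPM in NoUVB, with overlap in all 3 comparisons. The log2 differences were 0.22 ± 0.20 for UVB-hCOL3A1 against NoUVB (adjusted p = 0.716), 0.14 ± 0.20 for UVB-hCOL3A1 against UVB-Saline (0.847) and 0.08 ± 0.20 for UVB-Saline against NoUVB (0.932). Leaving out single libraries turned the sign of the last 2.

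**Figure D4:**
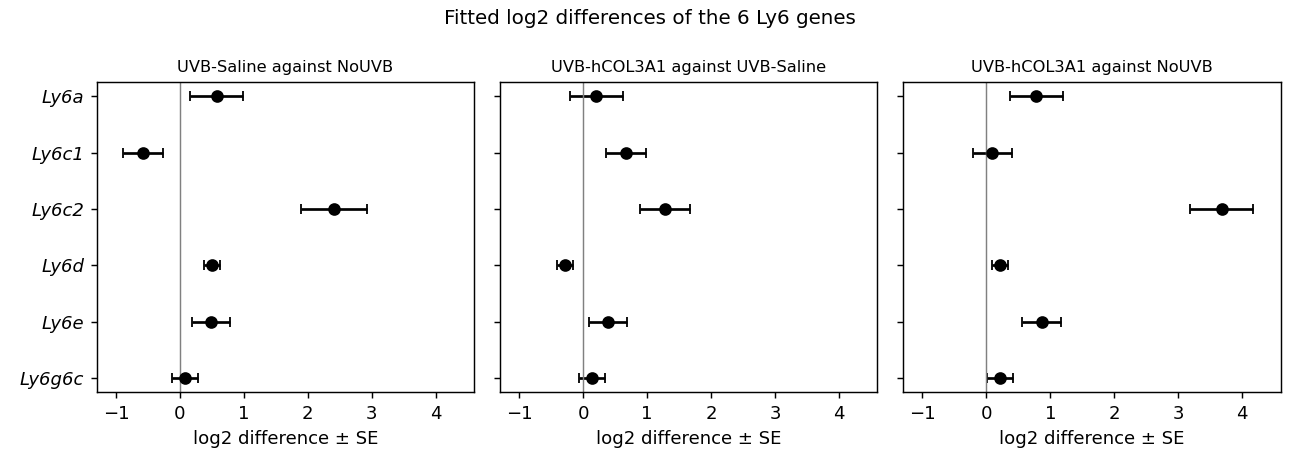
Fitted log2 differences with their standard errors (horizontal axis) of the 6 Ly6 genes in the 3 comparisons, from 1 edgeR fit. Ly6c2 lies farthest from 0 in each panel, at 2.40, 1.27 and 3.68, and the other 5 genes lie between -0.575 and 0.87.

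Counted over the 6 genes, UVB-Saline against NoUVB had 5 positive differences, where 51.8% of all genes tested were positive, with a median of 0.49 (0.01 over all genes). edgeR called 0 members, where 0.0175% of all genes were called, DESeq2 called 1 and limma voom 0. At an unadjusted p of 0.05, Ly6c2 and Ly6d passed, both higher, where 9.54% of all genes passed, 4.93% as higher and 4.6% as lower. Ly6c2 and Ly6d lay wholly higher and Ly6c1 wholly lower, where 7.18% and 6.61% of all genes did so and 13.8% did either.

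UVB-hCOL3A1 against UVB-Saline had 5 positive differences, where 46.1% of all genes were positive, with a median of 0.30 (-0.02 over all genes). edgeR called 0 members, where 0% of all genes were called, and DESeq2 and limma voom called 0. At an unadjusted p of 0.05, Ly6c2 was higher and Ly6d lower, where 11.3% of all genes passed, 5.97% as higher and 5.32% as lower. Ly6c2 alone lay wholly higher and no member wholly lower, where 8.95% and 8.33% of all genes did so and 17.3% did either.

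UVB-hCOL3A1 against NoUVB had 6 positive differences, where 49.2% of all genes were positive, with a median of 0.50 (-0.01 over all genes). At an unadjusted p of 0.05, Ly6c2 and Ly6e passed, both higher, where 11.8% of all genes passed, 6.29% as higher and 5.52% as lower. Ly6a, Ly6c2 and Ly6e lay wholly higher, where 10.7% of all genes did so and 21.4% lay wholly to either side. Nothing is read from these counts, since the members were chosen with results in view.

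Interferon response genes, a group to which Ly6a and Ly6e are often assigned, were measured in the same libraries. Their summed level over 44 genes was 867, 888 and 1208 CPM in UVB-hCOL3A1 1, 2 and 3, then 501, 707 and 2541 CPM in UVB-Saline, and 694, 428 and 528 CPM in NoUVB. UVB-Saline 3 was highest, as it was for Ly6e and Ly6a, and UVB-Saline 1 lay within the NoUVB range. Against NoUVB, all 44 differences were positive for UVB-hCOL3A1 (median 1.13) and for UVB-Saline (median 1.305). The UVB-Saline value turned on UVB-Saline 3: without it, an alternative chosen after seeing the data, 33 of 44 were positive with a median of 0.39, while for UVB-hCOL3A1 44 were positive with a median of 1.14. For UVB-hCOL3A1, 2 of the 44 passed, both higher, where 0.0408% of all genes were called. They were the transcription factor Irf7 (log2 difference 2.99 ± 0.33, adjusted p = 0.0482) and Oasl1, of the oligoadenylate synthetase family (2.89 ± 0.37, adjusted p = 0.0482). This count rested on single libraries: it was 20 without UVB-Saline 3, 11 without UVB-Saline 1, 1 without UVB-Saline 2 or UVB-hCOL3A1 3, and 0 without UVB-hCOL3A1 1, UVB-hCOL3A1 2 or any 1 NoUVB library. Calls over all genes moved likewise, to 242 (1.37%) without UVB-Saline 3 and 144 (0.817%) without UVB-Saline 1, against 7 with all 9 libraries.

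For UVB-Saline against NoUVB, edgeR called 0 of the 44, with 26 higher at an unadjusted p of 0.05 (4.93% of all genes), DESeq2 called 8 (0.646% of all genes) and limma voom 0. Without UVB-Saline 3, 18 were higher at an unadjusted p of 0.05 in edgeR and 0 were called. With all 9 libraries the smallest p for UVB-Saline against NoUVB belonged to Oasl1 (1.92 ± 0.39, adjusted p = 0.231) and the nucleotide kinase Cmpk2 (1.45 ± 0.30, adjusted p = 0.231). Between UVB-hCOL3A1 and UVB-Saline, 18 of 44 differences were positive (median -0.15) and edgeR called 0, with 2 higher at an unadjusted p of 0.05 (5.97% of all genes), while DESeq2 called 1 (1.43% of all genes) and limma voom 0. Without UVB-Saline 3 the direction turned, with 43 of 44 positive, a median of 0.75, 25 higher at an unadjusted p of 0.05 and 1 call (0.442% of all genes). With all 9 libraries, 3 of the 44 lay wholly higher in UVB-hCOL3A1 than in UVB-Saline and 0 wholly lower. Of all genes, 8.95% and 8.33% did so. The 3 were Irf7 (1.43 ± 0.30, adjusted p = 0.206), Oasl1 (0.97 ± 0.31, adjusted p = 0.311) and Isg20 (0.64 ± 0.30, adjusted p = 0.458).

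Markers of monocytes and macrophages, cells known for Ly6C, were measured beside Ly6c2. Summed over 17 genes they held 758, 832 and 1009 CPM in UVB-hCOL3A1, 312, 552 and 852 CPM in UVB-Saline, and 471, 489 and 519 CPM in NoUVB, and none of the 17 was at 0 in all libraries. Against NoUVB all 17 had a positive difference in UVB-hCOL3A1 (median 1.11) and 14 lay wholly higher, where 10.7% of all genes did so. edgeR called 0 of them, with 12 higher at an unadjusted p of 0.05 (6.29% of all genes), limma voom called 0 and DESeq2 called 7, all higher (1.73% of all genes called in either direction). Without UVB-Saline 3 edgeR called 6, where 1.37% of all genes were called. The log2 difference was 1.72 ± 0.27 for Itgam, an integrin of myeloid cells (adjusted p = 0.0854), and for Ms4a4c, a membrane protein gene, it was 2.59 ± 0.49 (adjusted p = 0.126). Between UVB-hCOL3A1 and UVB-Saline, 15 of 17 were positive (median 0.69), or 16 without UVB-Saline 3 (median 1.18). With all 9 libraries 6 lay wholly higher, where 8.95% of all genes did so. edgeR then called 0, DESeq2 called 2 (1.43% of all genes) and limma voom 0. Without UVB-Saline 3 edgeR called 3 (0.442% of all genes). With all 9 libraries, 6 were higher and 1 lower at an unadjusted p of 0.05 in edgeR, where 5.97% and 5.32% of all genes were. The one lower was Chil3, a chitinase-like protein gene of macrophages, with 0.897 ± 0.740 CPM in UVB-hCOL3A1 and 3.75 ± 4.27 CPM in UVB-Saline (SD, n = 3 each; log2 difference -2.10 ± 0.88, adjusted p = 0.425). Chil3 stood at 8.67 CPM in UVB-Saline 3, against 1.03 and 1.56 CPM in UVB-Saline 1 and 2. Without UVB-Saline 3, 15 of the 17 were higher and 0 lower at an unadjusted p of 0.05 in edgeR.

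Between UVB-Saline and NoUVB, 14 of the 17 monocyte and macrophage genes were positive (median 0.50), or 9 without UVB-Saline 3 (median 0.04). With all 9 libraries 1 lay wholly higher, where 7.18% of all genes did so. edgeR, DESeq2 and limma voom each called 0, and 6 were higher at an unadjusted p of 0.05 in edgeR (4.93% of all genes). Without UVB-Saline 3, 2 were higher at an unadjusted p of 0.05 in edgeR. The inflammatory monocyte receptor gene Ccr2 stood at 57.3, 36.6 and 53.0 CPM in UVB-hCOL3A1, 13.4, 30.1 and 41.1 CPM in UVB-Saline, and 16.9, 19.0 and 19.5 CPM in NoUVB. Other genes of the list differed from it. Mean levels in UVB-hCOL3A1, UVB-Saline and NoUVB were 2.04, 2.58 and 1.82 CPM for Cx3cr1 and 7.61, 6.75 and 2.93 CPM for Plac8.

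Lymphoid and neutrophil markers were measured in the same libraries. The 9 B and plasma cell genes summed to 620, 45.2 and 317 CPM in UVB-hCOL3A1, 57.8, 11.7 and 237 CPM in UVB-Saline, and 19.3, 19.0 and 22.7 CPM in NoUVB. The 16 T and NK cell genes summed to 83.3, 85.7 and 103 CPM in UVB-hCOL3A1, 60.9, 73.2 and 111 CPM in UVB-Saline, and 61.9, 70.5 and 80.9 CPM in NoUVB. The largest part of each of these sums was 1 gene, Thy1. It stood at 45.8, 56.7 and 56.1 CPM in UVB-hCOL3A1, 37.3, 44.8 and 48.9 CPM in UVB-Saline, and 38.2, 45.4 and 46.0 CPM in NoUVB. The 10 neutrophil markers, of which 5 were tested, summed to 29.7 to 47.1 CPM in UVB-hCOL3A1, 22.0 to 35.7 CPM in UVB-Saline and 21.3 to 34.4 CPM in NoUVB, and Ly6g, the family gene that marks these cells, had 0 counts in all 9 libraries. The part of any of these cell types in the Ly6 levels was not tested.

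**Figure D5:**
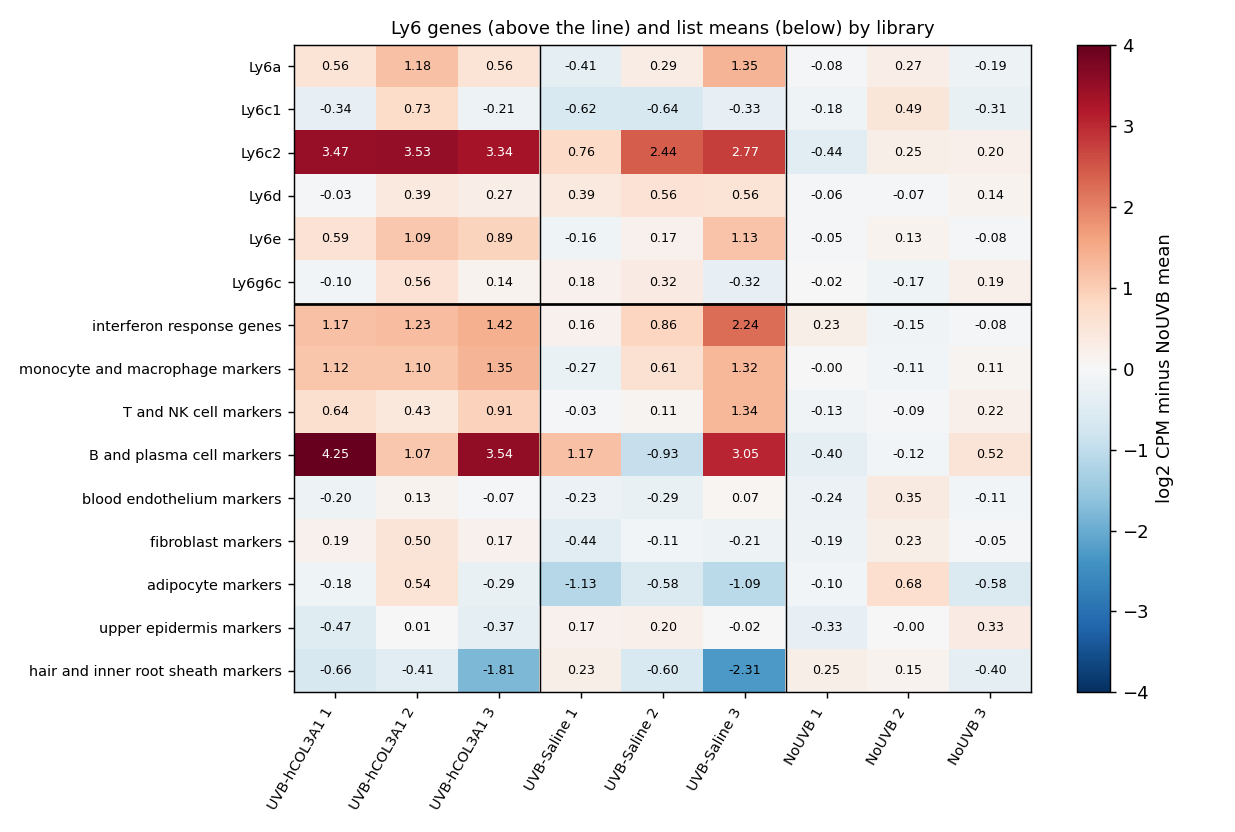
Log2 CPM relative to the mean of the 3 NoUVB libraries (colour and printed value) for the 6 Ly6 genes, above the line, and for the mean of each marker list, below it, by library. Ly6c2 stands 3.34 to 3.53 above the NoUVB mean in UVB-hCOL3A1, where the interferon list stands at 1.17 to 1.42, and UVB-Saline 3 has the highest interferon mean at 2.24.

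The genes with the most similar pattern differed between members. Likeness was the Pearson correlation of log2 CPM over the 9 libraries, among 12871 genes above a minimum average level (log2 CPM of 1). The 12871 count the member itself and leave out genes without a symbol and those whose symbol starts with Gm and a digit or ends in Rik. Ly6c2 lay closest to Ada, an adenosine deaminase (r = 0.97, Spearman rho = 0.93), Ifi208, an interferon-activable gene (0.97, 0.92), and Epsti1 (0.97, 0.88). Ly6e lay closest to Grb2, a signalling adaptor (r = 0.97, rho = 0.97), Litaf (0.97, 0.92) and Ifitm3, an interferon-induced transmembrane protein (0.97, 0.92). Ly6a lay closest to Rtf2 (r = 0.96, rho = 0.87), Tor1aip1 (0.96, 0.98) and the proteasome subunit gene Psma5 (0.96, 0.93).

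Ly6c1 lay closest to Igfbp6, an insulin-like growth factor binding protein (r = 0.98, rho = 0.90), the small proteoglycan gene Fmod (0.98, 0.93) and Ephx1, an epoxide hydrolase (0.97, 0.87). Ly6d lay closest to Ykt6 (r = 0.96, rho = 0.88), the water channel gene Aqp9 (0.94, 0.90) and Arf5 (0.93, 0.82). Ly6g6c lay closest to Klhl25 (r = 0.97, rho = 0.98), Cst6, an epidermal protease inhibitor (0.95, 0.87), and Acox3 (0.93, 0.92). These genes were picked for their likeness among many candidates over 9 libraries, so the values are descriptions only. Among the members, Ly6c2 had r = 0.84 with Ly6e, 0.76 with Ly6a and 0.08 with Ly6c1.

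Other genes of the Ly6/uPAR family were mostly silent or similar between groups. All 37 listed were in the table, 9 had 0 counts in every library and 14 passed the low-count filter. Ly6i, which lies between Ly6e and Ly6a and shares 75-base windows with Ly6a, did not pass, with 3.02 to 4.06 counts in UVB-hCOL3A1, 4.1 to 28.14 in UVB-Saline and 2.04 to 8.24 in NoUVB. Among these 14, edgeR called 0 in each of the 3 comparisons, as did DESeq2, limma voom and every other setting run, with 1, 3 and 3 at an unadjusted p of 0.05 for UVB-Saline against NoUVB, UVB-hCOL3A1 against UVB-Saline and UVB-hCOL3A1 against NoUVB, where 9.54%, 11.3% and 11.8% of all genes passed. For UVB-hCOL3A1 against NoUVB, 4 of the 14 lay wholly lower and 0 wholly higher, where 10.7% of all genes did each. The median log2 difference was -0.15, -0.14 and -0.23 in the same order, against 0.01, -0.02 and -0.01 over all genes tested.

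Several of these family genes lay apart between groups without passing the test. For UVB-Saline against NoUVB, 1 of the 14 lay wholly higher and 1 wholly lower, where 7.18% and 6.61% of all genes did so. For UVB-hCOL3A1 against UVB-Saline, 1 lay wholly higher and 2 wholly lower, where 8.95% and 8.33% of all genes did so. Ly6m, a family gene in the same cluster, had 1.14, 1.51 and 1.40 CPM in UVB-hCOL3A1, 3.08, 2.22 and 4.66 CPM in UVB-Saline and 2.41, 2.41 and 4.23 CPM in NoUVB. UVB-hCOL3A1 lay wholly below both other groups, by -1.29 ± 0.36 from UVB-Saline (adjusted p = 0.260) and -1.17 ± 0.36 from NoUVB (0.251). Gpihbp1, which anchors lipoprotein lipase on capillary endothelium, had 3.66, 6.87 and 3.99 CPM in UVB-hCOL3A1, 3.70, 3.37 and 3.14 CPM in UVB-Saline and 5.40, 7.23 and 5.10 CPM in NoUVB. UVB-Saline lay wholly below NoUVB, by -0.80 ± 0.27 (adjusted p = 0.403).

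Ly6g6e, a neighbour of Ly6g6c, lay wholly lower in UVB-hCOL3A1 than in UVB-Saline (log2 difference -0.55 ± 0.17, adjusted p = 0.305) and wholly higher in UVB-Saline than in NoUVB (0.38 ± 0.17, adjusted p = 0.531). Cd59a, an inhibitor of complement, lay wholly higher in UVB-hCOL3A1 than in UVB-Saline (0.45 ± 0.20, adjusted p = 0.435). Against NoUVB, Lypd6b was lower in every UVB-hCOL3A1 library (-0.70 ± 0.22, adjusted p = 0.267), as was Lypd5 (-0.47 ± 0.23, 0.465), and Lypd3, which overlapped, had -0.39 ± 0.15 (0.356). The other named family genes in that comparison were Lynx1 (0.22 ± 0.17), Slurp1 (0.36 ± 0.42), Slurp2 (0.24 ± 0.51), the urokinase receptor Plaur (0.34 ± 0.40) and Pinlyp (-0.59 ± 0.32), with adjusted p values from 0.514 to 0.896.

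Genes that attach GPI anchors, which most Ly6 proteins need, were called in no comparison by edgeR, DESeq2 or limma voom. Of 25 tested, 13 were positive for UVB-hCOL3A1 against NoUVB (median 0.01), 6 for UVB-hCOL3A1 against UVB-Saline (median -0.13) and 21 for UVB-Saline against NoUVB (median 0.12). Of all genes, 49.2%, 46.1% and 51.8% were positive in the same order. At an unadjusted p of 0.05, 2, 3 and 4 passed in the same order, where 11.8%, 11.3% and 9.54% of all genes did so. Wholly higher lay 3, 1 and 6, where 10.7%, 8.95% and 7.18% of all genes did so. Wholly lower lay 2, 8 and 0, where 10.7%, 8.33% and 6.61% of all genes did so. The smallest p values belonged to Pigt, a subunit of the transamidase that attaches the anchor, for UVB-hCOL3A1 against NoUVB (log2 difference 0.37 ± 0.12, adjusted p = 0.266), to Pigq for UVB-hCOL3A1 against UVB-Saline (-0.40 ± 0.13, 0.332) and to Pgap2 for UVB-Saline against NoUVB (0.51 ± 0.16, 0.367).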

How the data were processed

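RNA was measured in 9 skin libraries, sequenced as paired 150 bp reads from total RNA per the labels' protocols. Per the submitters' processing notes, the tools included RSEM 1.3.3, STAR 2.7.11b, Bowtie2 2.5.4 and fastp 0.23.4, with DESeq2 1.44.0 and the build GRCm39 also named. Neither the role of each tool nor the annotation release or strand setting is given in the sources used here. The deposited table holds estimated counts of 57180 genes, in which reads that fit several genes can be shared between them. Between 11.1% and 14.0% of values per library were not whole, and they were rounded before testing.

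Groups and replicate numbers came from the library names. Each library counted as 1 replicate. Within groups, libraries differed beyond counting noise (chi-square over its degrees of freedom, 8.18 to 250, with Rn18s-rs5 included). This does not show that they came from separate animals, since separate preparations of 1 sample can differ so too. Genes were kept by filterByExpr, scaled by TMM and tested in 1 quasi-likelihood fit over the 3 groups with edgeR 4.0.16 in R 4.3.3 (robust, 6 residual degrees of freedom, two-sided). Adjusted p values are Benjamini-Hochberg over all 17168 genes, with a threshold of 0.05, and come from edgeR where no other tool is given. CPM was computed with TMM scaling, and log2 CPM used a prior count of 2. Levels in CPM are not per length and are compared only within a gene.

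The members, gene lists and naming rule were chosen with earlier results of these data known. Named were all members, family genes above an average log2 CPM of 1, list genes with the smallest p and the 3 genes most like each member. Single genes of the cell type lists were also named as examples, outside the order of p. Alternatives were other scalings, filters and dispersion, DESeq2 1.42.0, limma 3.58.1 voom, 2-group fits, a replicate block, removal of ribosomal RNA genes, Ly6c1 and Ly6c2 summed, and leaving out each library. Reference sequences and gene order are of GRCm38, another build than that of the counts.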

Additional observations from a re-analysis of the deposited data

How the results depend on the processing

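Over 354 recomputed log2 differences of the 6 members, 328 kept their direction and their side of the threshold. For UVB-Saline against NoUVB the count of members called, 0, became 1 (Ly6c2) with scaling by library size alone and with DESeq2, and that of interferon genes, 0, became 13 and 8, and 3 with no low-count filter, while calls over all genes, 3, became 100, 96 and 73. With 1 library left out these counts were 0 to 1 and 0 to 3. For UVB-hCOL3A1 against UVB-Saline 1 interferon gene was called with library size alone and 1 with DESeq2, and members and interferon genes were each 0 to 1 with a library left out. For UVB-hCOL3A1 against NoUVB the count of members, 1, became 0 with limma voom, with non-robust dispersion and with Ly6c1 and Ly6c2 summed, and 2 (Ly6c2 and Ly6e) in a fit of 2 groups. The 2 interferon genes became 18 with library size alone, 4 with no filter, 14 with DESeq2, 0 with limma voom, 1 with non-robust dispersion and 26 in a fit of 2 groups. With 1 library left out the counts were 0 to 2 and 0 to 20. Calls over all genes, 7, became 159 with library size alone, 178 with no filter, 269 with DESeq2, 0 with limma voom, 1 with non-robust dispersion and 407 in a fit of 2 groups. The causes were not tested. Library size alone shifted the median of all genes by -0.12 in that comparison and turned Ly6c1 to -0.11.

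With 1 library left out, Ly6g6c ranged from -0.059 to 0.24 for UVB-Saline against NoUVB and from -0.064 to 0.31 for UVB-hCOL3A1 against UVB-Saline. Ly6a ranged from -0.042 to 0.90 and from -0.11 to 0.84 in the same order, Ly6e from -0.0022 to 0.72 in the first, and Ly6c1 from -0.325 to 0.40 for UVB-hCOL3A1 against NoUVB. Reversed values within these ranges were -0.0064 (Ly6g6c without NoUVB 2), -0.0034 (Ly6g6c without UVB-Saline 3), -0.03 (Ly6a without UVB-hCOL3A1 2) and -0.05 (Ly6c1 without NoUVB 3).

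The labels give the groups the same replicate numbers, and the main fit did not pair libraries by them. Same-numbered libraries correlated at 0.02 to 0.41 in their deviations from group means, over 0.1 in 5 of 9 pairs. Pairs with different numbers correlated at -0.39 to 0.26. Of the 9 libraries, 7 correlated best with their own number. What same-numbered libraries may share was not tested. With a replicate block the members called were 0, 0 and 1 for UVB-Saline against NoUVB, UVB-hCOL3A1 against UVB-Saline and UVB-hCOL3A1 against NoUVB, as without it. Calls over all genes were 61, 74 and 118 with the block, against 3, 0 and 7 without it.

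Depth limits Ly6c2, which had 3.28 to 9.21 counts in NoUVB libraries.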

Other observations

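Ly6g6g, a family gene beside Ly6d that was in none of the lists, was looked up after its values had been seen. Its level was 10.7, 14.5 and 3.78 CPM in UVB-hCOL3A1 1, 2 and 3, then 17.7, 9.95 and 2.28 CPM in UVB-Saline, and 15.8, 14.4 and 11.7 CPM in NoUVB. The lowest libraries, UVB-Saline 3 and UVB-hCOL3A1 3, were also lowest in the summed level of 20 hair and inner root sheath markers, at 1302 and 2644 CPM against 5732 to 12112 CPM in the other 7. The log2 difference of Ly6g6g was -0.52 ± 0.65 for UVB-hCOL3A1 against NoUVB (edgeR adjusted p = 0.805) and -0.48 ± 0.66 for UVB-Saline against NoUVB (0.861). The part of hair follicle content in its level was not tested.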
